A study of Mus musculus with 5 samples.

Results

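The genes described here are those of the MHC class II pathway of antigen presentation and the factors that switch it on, 10 listed genes out of 21887 protein-coding genes. They fall into the class II genes with their master regulator, 7 genes (Ciita, Cd74, H2-Ab1, H2-Aa, H2-Eb1, H2-DMa and H2-DMb1), and the 3 subunits of the RFX complex (Rfx5, Rfxank and Rfxap). All 10 were found in the gene table. The data were 1 list of 22948 peaks of H3K27ac, the acetylation of histone H3 at lysine 27 that marks active promoters and enhancers. It came from ChIPmentation, an immunoprecipitation of chromatin whose sequencing adapters are put in by the transposase Tn5. The cells were sorted from mouse bone marrow as CD45.2+, lineage-negative, Sca1+ and Kit+, and are labelled HSC/MPP (haematopoietic stem cells and multipotent progenitors). Both groups, 4 H3K27ac libraries and 1 input library, carry the genotype Mll3/4 deleted, which removes a pair of histone methyltransferases that act mainly at enhancers. How and when the genes were deleted, and the age of the animals, are not given in the sources used here. No library of another genotype was used, so each value below is a level in Mll3/4-deleted cells and no gain or loss was measured. The list holds no value of a single library, so there was no replicate error and no test, and the total read depth is unknown.

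MHC class II molecules show peptides from taken-up material to CD4 T cells, and their genes are active mainly in B cells, dendritic cells and macrophages or after interferon gamma. Their promoters share an X box, bound by the RFX complex, an X2 box, bound by CREB-type factors, and a Y box, which holds an inverted CCAAT and is bound by NF-Y. These factors are found in most cells. Ciita encodes the coactivator CIITA, which does not bind DNA itself but docks on the factors at these boxes, and its own expression sets where and when class II genes are on. H2-Aa and H2-Ab1 encode the chains of I-A, H2-Eb1 encodes the beta chain of I-E, Cd74 encodes the invariant chain that escorts class II molecules through the cell, and H2-DMa and H2-DMb1 encode the chains of the DM peptide loader.

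The promoter words are shown first, because H2-Oa and H2-Ob, which had an H3K27ac peak at their start, and H2-Aa and H2-Eb1, which had none, all carried them. RefSeq promoter sequences (GRCm38.p6) matched 6 of the 10 genes: H2-Aa, H2-Eb1, H2-DMa, H2-DMb1, Rfx5 and Rfxank, and not Ciita, Cd74, H2-Ab1 and Rfxap. Each line below gives the 150 bases that end just before the gene's start, 5′ to 3′ along the gene. In the class II genes the capitals mark an X-type word, GCAAC, and the Y-type word ATTGG that follows it. In H2-DMb1 the X-type word is GTAAC. In Rfx5 they mark CCAAT, which is ATTGG on the other strand.
H2-Aa, chr17:34287824-34287973, minus strand: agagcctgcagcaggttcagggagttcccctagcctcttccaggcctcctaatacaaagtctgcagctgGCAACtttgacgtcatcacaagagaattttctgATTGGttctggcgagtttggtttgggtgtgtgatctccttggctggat
H2-Eb1, chr17:34305717-34305866, plus strand: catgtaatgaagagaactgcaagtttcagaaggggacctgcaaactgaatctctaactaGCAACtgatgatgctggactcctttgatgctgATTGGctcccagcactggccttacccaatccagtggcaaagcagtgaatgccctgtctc
H2-Eb2, chr17:34325525-34325674, plus strand: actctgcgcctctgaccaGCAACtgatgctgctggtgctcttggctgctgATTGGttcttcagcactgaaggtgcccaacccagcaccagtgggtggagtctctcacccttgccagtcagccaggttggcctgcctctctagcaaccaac
H2-DMb1, chr17:34153041-34153190, plus strand: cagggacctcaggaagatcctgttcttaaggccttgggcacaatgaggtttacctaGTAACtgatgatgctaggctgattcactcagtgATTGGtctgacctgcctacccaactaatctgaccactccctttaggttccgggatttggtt
H2-Oa, chr17:34092229-34092378, plus strand: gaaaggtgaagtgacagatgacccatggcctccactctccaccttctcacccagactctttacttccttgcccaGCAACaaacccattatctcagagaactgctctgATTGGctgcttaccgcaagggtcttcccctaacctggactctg
H2-Ob, chr17:34238755-34238904, plus strand: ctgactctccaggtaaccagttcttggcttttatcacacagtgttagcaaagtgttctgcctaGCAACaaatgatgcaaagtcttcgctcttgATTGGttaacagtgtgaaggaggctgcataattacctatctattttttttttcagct
Rfx5, chr3:94953958-94954107, plus strand: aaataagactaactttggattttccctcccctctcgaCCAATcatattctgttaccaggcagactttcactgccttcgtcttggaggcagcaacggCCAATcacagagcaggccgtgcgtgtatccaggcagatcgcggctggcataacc
Both strands of each promoter (250 bases before and 50 after the start) were searched for GCAAC followed on the same strand by ATTGG, with word starts 25 to 45 bases apart. In H2-Aa the words began at -81 and -48 from the start, 33 bases apart, with the X2-type word TGACG between them. In H2-Eb1 they began at -91 and -59, 32 bases apart. H2-DMb1 was matched only with GNAAC in place of GCAAC, a form chosen after its sequence was seen, with words at -94 and -61, 33 bases apart. The 2 H2-DMa starts in the promoter table lie 16.3 and 13.6 kb before the high end of the 19.4 kb gene. Neither of these promoters held the pair in either form, and the rest of H2-DMa was not searched. Rfx5 and Rfxank held CCAAT or ATTGG without the pair. Of the other class II genes, H2-Eb2, H2-Oa and H2-Ob held the pair with word starts 32, 33 and 30 bases apart. H2-DMb2 held ATTGG without the pair in either form. Across the promoters of protein-coding genes, 222 of 21263 (1.04%) held the GCAAC form and 3.52% the GNAAC form. A match describes letters and shows no binding.

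A peak was at a gene end when it overlapped the 1 kb on either side of the low or high end of the gene. By this rule 2 of the 7 class II genes and Ciita (H2-Ab1 and H2-DMa) and 2 of the 3 RFX genes (Rfxank and Rfxap) had a peak at an end, against 36.2% of all protein-coding genes. With this few genes, neither count can be told from that share. The strength of a peak is given by the signal value, the authors' enrichment of H3K27ac over background as a ratio, with a median of 3.27 over all peaks and extremes of 1.44 and 34.05. Where a coding gene had an end peak, the strongest one had a median signal value of 4.71 (interquartile range 3.52 to 6.55).

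**Figure D1:**
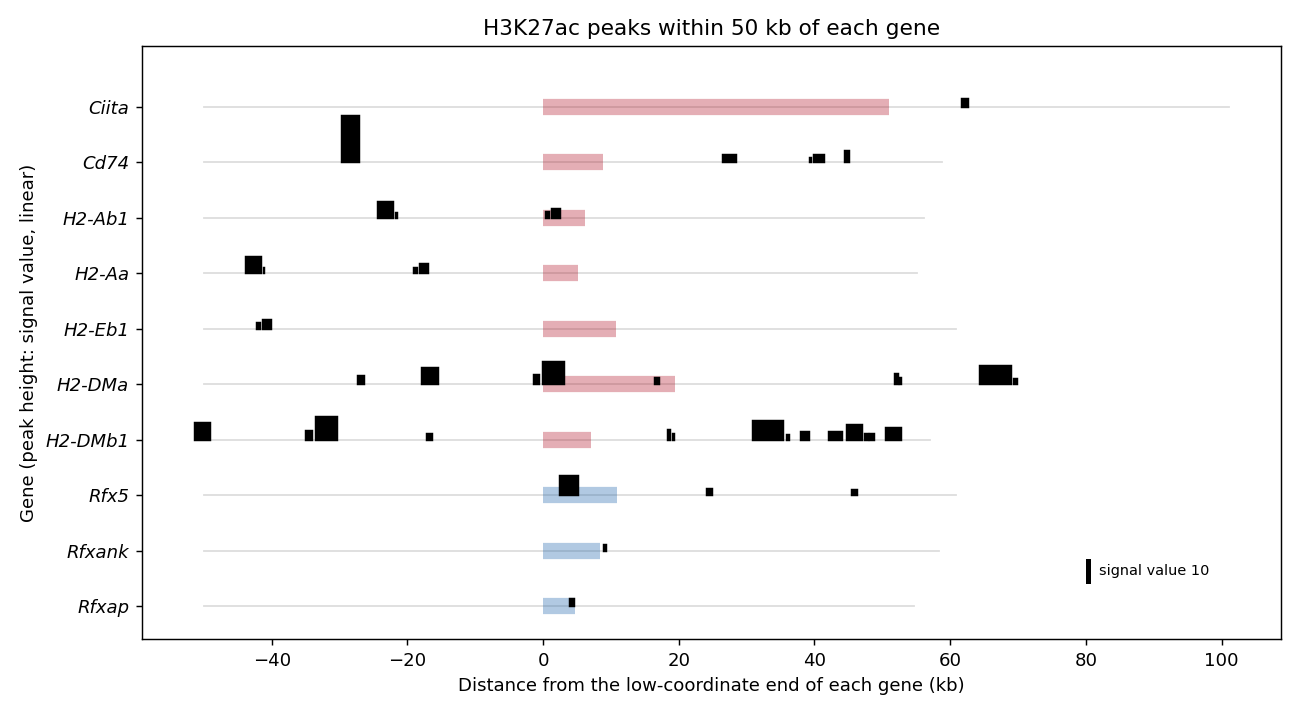
Peaks (black, width to scale, height proportional to the signal value) within 50 kb of each of the 10 genes, with distance in kb from the low-coordinate end of the gene, class II genes and Ciita in red and RFX genes in blue. Ciita, Cd74, H2-Aa, H2-Eb1 and H2-DMb1 have no peak on the gene, and the tallest peak near any of them, at 18.9 beside Cd74, lies at another gene.

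Ciita, on chromosome 16 from 10480014 to 10531064, had no peak at an end and none in its 51.1 kb body. A single peak lay within 50 kb, from 10541677 to 10542580, with a signal value of 3.36 (−log10 q 3.22). It began 10.6 kb beyond the high end of Ciita and overlapped the end window of the neighbouring gene Dexi, with its summit 0.651 kb from that gene's end. Of all coding genes, 44.3% had more peaks within 50 kb than this 1. No peak that passed the authors' calling was therefore found on the gene of the class II coactivator, and weaker H3K27ac below that calling may have been missed.

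Cd74, on chromosome 18 from 60803849 to 60812652, also had no peak at an end or in its 8.80 kb body. The 5 peaks within 50 kb had signal values of 18.9, 3.28, 2.17, 3.36 and 4.77, from low to high coordinates. The first ranked 8 by signal value in the whole list, and its summit lay 0.297 kb from an end of Rps14, a ribosomal protein gene. The near edge of this first peak lay 27.1 kb from the low end of Cd74. The last lay at an end of Tcof1. The other 3 were at no coding gene's end, and the closest of them to Cd74 (signal value 3.28, −log10 q 3.45) began 17.5 kb beyond its high end.

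H2-Ab1 was the classical class II gene with peaks of its own. The gene lies on chromosome 17 from 34263227 to 34269418. A first peak, from 34263522 to 34264141, had its summit 0.594 kb inside the low end, with a signal value of 2.57 (−log10 q 1.35), just inside a q-value of 0.05. This was a weak peak: 3.63% of coding genes with an end peak were lower still. The second lay in the body from 34264455 to 34265733, with its summit 1.76 kb from the low end, a signal value of 3.98 (−log10 q 5.62), and 65.5% of all peaks had a lower signal value. In the body, outside the end windows, 2 of the 7 class II genes and Ciita had a peak (H2-Ab1 and H2-DMa), as did 1 of the 3 RFX genes (Rfx5), against 28.5% of all coding genes.

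H2-Aa, from 34282744 to 34287823, and H2-Eb1, from 34305867 to 34316674, had no peak at an end or in the body. Their nearest peak was the one in the body of H2-Ab1. It lay 22.1 kb from the start of H2-Aa and 40.1 kb from the start of H2-Eb1, which carry the paired words shown above. Beyond that peak no other was called for 133 kb, from 34265734 to 34398628. The stretch held 5 coding genes whole (H2-Aa, H2-Eb1, H2-Eb2, Btnl2 and Btnl1). Stretches between neighbouring peaks had a median of 20.6 kb over the genome, and 14.9% of them were at least as long as this one.

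The DM genes differed from each other at their ends. H2-DMa, annotated from 34119693 to 34139101, had 2 peaks at its low end. The stronger, from 34119556 to 34122806, reached a signal value of 9.37 (−log10 q 31.3), above the strongest end peak of 91.8% of coding genes that had one. The same peak reached into the 1 kb window at an end of Brd2, which encodes a bromodomain reader of acetylated histones and overlaps the annotated low end of H2-DMa on the opposite strand. It stopped 26 bases short of the first of the 2 starts the promoter table gives for H2-DMa, and 2.71 kb short of the second. The weaker peak at this end had a signal value of 3.92 and lay within 1 kb of a Brd2 start but of no H2-DMa start. These peaks cannot be assigned to H2-DMa rather than Brd2 from the list. A further peak, in the H2-DMa body from 34135976 to 34136817, with its summit 2.66 kb from the high end, overlapped no other gene's end window and had a signal value of 2.69 (−log10 q 1.67). H2-DMb1, from 34153191 to 34160229, had no peak at an end or in the body, and its start lay 16.4 kb from the nearest one, in H2-DMa.

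**Figure D2:**
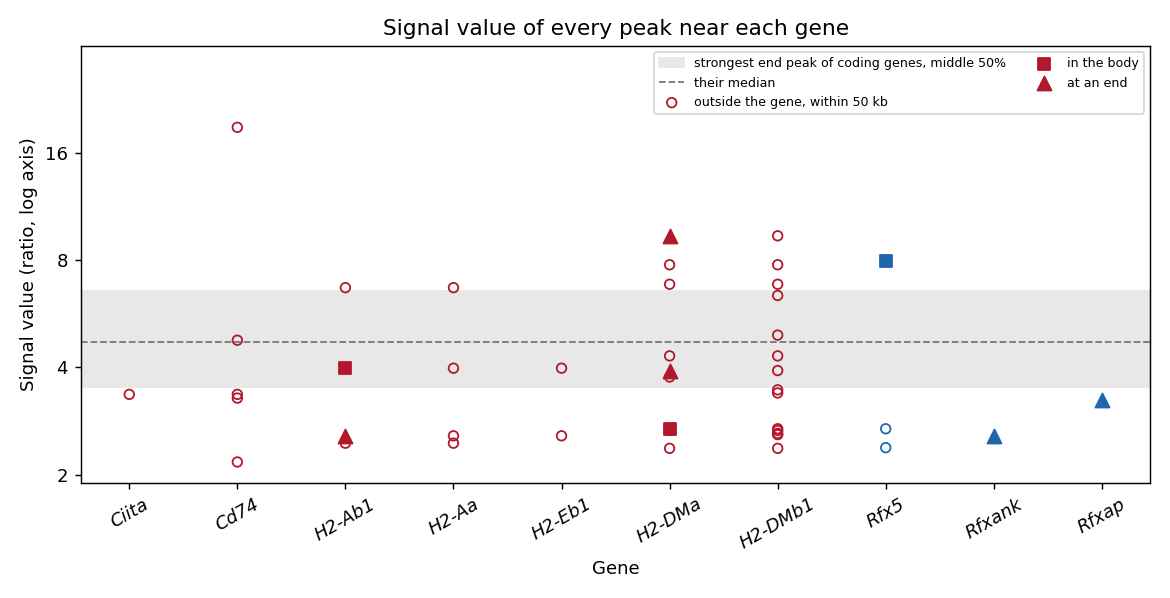
Signal value (ratio, log axis) of each peak within 50 kb of each gene, with triangles for peaks at an end, squares for peaks in the body and open circles for peaks outside the gene; the grey band and dashed line give the middle 50% (3.52 to 6.55) and the median (4.71) of the strongest end peak over coding genes. Only the H2-DMa end peak (9.37) and the Rfx5 body peak (7.96) lie above the band among peaks on the 10 genes.

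Of the 3 RFX genes, Rfxank and Rfxap had a peak at an end and Rfx5 had one in its body, at very different strengths. The share of all coding genes with a peak by either rule was not counted. Rfx5, which encodes the DNA-binding subunit, lies on chromosome 3 from 94950689 to 94961561. Its peak, from 94953081 to 94955882, counted as a body peak, because the low end of the annotated gene lies 3.42 kb before the start in the promoter table. The peak covered that start, with its summit 173 bases past it, and it had a signal value of 7.96 (−log10 q 23.4). Of all peaks, 94.1% had a lower signal value. The CCAAT words printed for Rfx5 lie inside this peak.

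Rfxank encodes the ankyrin-repeat subunit of the complex and lies on chromosome 8 from 70130806 to 70139197. Its peak, from 70139694 to 70140024, was 331 bases wide, began 497 bases before the gene's start and also lay at ends of Borcs8 and Gm45929. The signal value was 2.57 and −log10 q 1.35, the same values as the weaker H2-Ab1 peak. Rfxap encodes the remaining, RFX-associated subunit and lies on chromosome 3 from 54803115 to 54807791. It had a peak of its own from 54806879 to 54807743, inside the high end, with a signal value of 3.24 (−log10 q 3.22). Of coding genes with an end peak, 18.9% were lower.

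Counted at starts of the promoter table alone, 1 of the 4 class II genes with a start (H2-DMa, by the peak shared with Brd2) and both RFX genes with a start (Rfx5 and Rfxank) had a peak within 1 kb, against 38.0% of the 17492 coding genes with one. In stricter lists the end counts fell. When −log10 q had to reach 5, H2-DMa alone of the 7 and none of the 3 RFX genes kept an end peak, against 24.0% of coding genes. A signal value of at least 4 gave these same counts, against 23.2%. At q-values up to 0.05 the counts were 2 of 7 and 2 of 3, against 34.4%. Within 2.5 kb of an end they were 2 of 7 and 3 of 3, against 39.3%, since Rfx5 was then counted. By summits within 1 kb they were 2 of 7 and 2 of 3, against 33.3%. Over all 49943 annotated genes, coding or not, 20.9% had a peak at an end.

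Beyond the end windows, a peak lay in the body or within 50 kb of 7 of the 7 class II genes and Ciita, and of 1 of the 3 RFX genes (Rfx5), against 62.4% of all coding genes. The number of such peaks per gene was 14 for H2-DMb1, 7 for H2-DMa, 5 for Cd74, 4 for H2-Aa, 3 for H2-Ab1, 2 for H2-Eb1 and 1 for Ciita, against a median of 1 over coding genes. Rfx5 had 3, and Rfxank and Rfxap had 0. More peaks than H2-DMb1 were found at 0.667% of coding genes. None of its 14 peaks lay on H2-DMb1, and those at ends of Psmb9, Tap1, Psmb8 and Tap2 were among them. The neighbouring H2-DMb2 also had 14. These counts overlap: the 5 class II genes of chromosome 17 together drew on 19 distinct peaks, of which 12 lay within 50 kb of at least 2 of them.

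Of the 25 distinct peaks within 50 kb of the class II genes and Ciita, 11 lay at an end of a coding gene outside the 7 and at no end of the 7, with a median signal value of 4.77. A further 1 was the peak shared by H2-DMa and Brd2. The remaining peaks were 1 at an end of H2-Ab1, 1 at the annotated low end of H2-DMa that also lay within 1 kb of a Brd2 start, 2 inside H2-DMa or H2-Ab1 and 9 at no gene end. Among the last, the strongest (signal value 6.85, −log10 q 19.4) lay on chromosome 17 from 34101694 to 34104168, between H2-Oa and Brd2, 15.5 kb from H2-DMa. Another, from 34171407 to 34171936 (signal value 4.31, −log10 q 6.93), lay 11.2 kb beyond H2-DMb1 towards Psmb9.

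**Figure D3:**
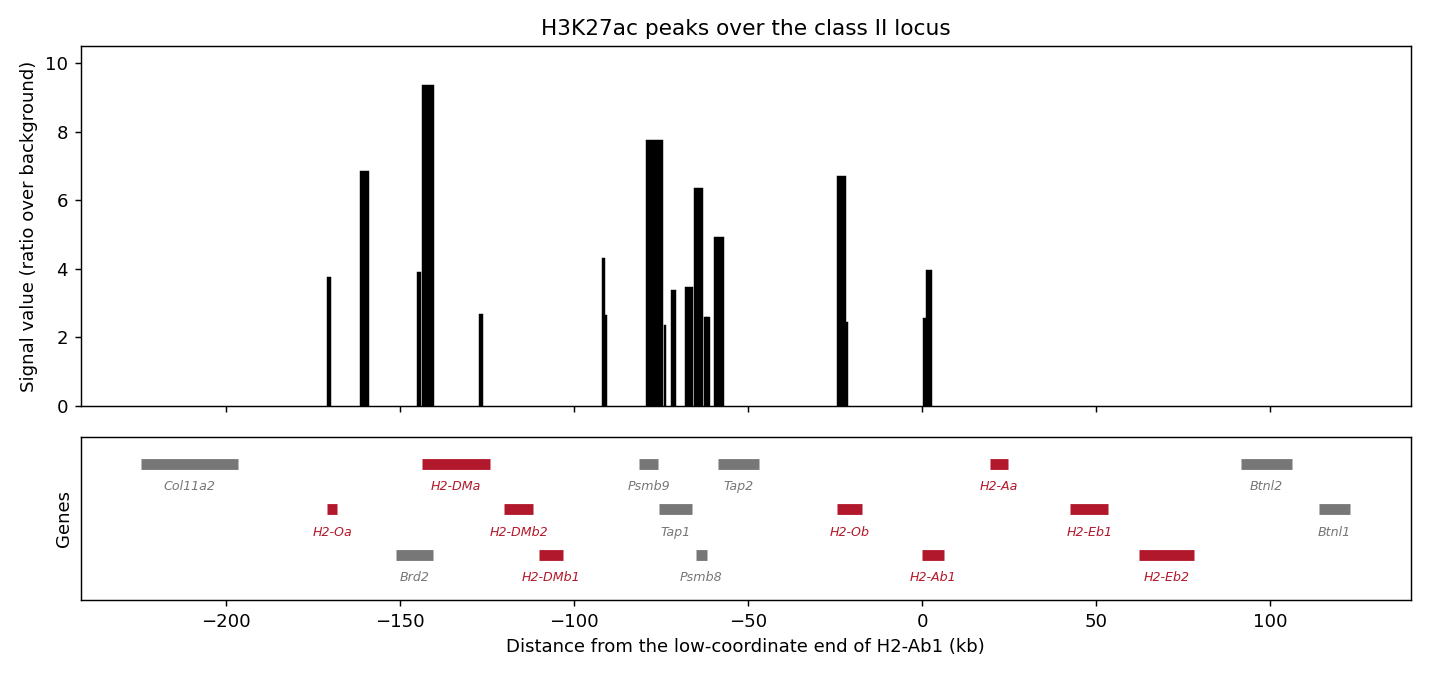
H3K27ac peaks (top, bars to scale in width, height the signal value) and coding genes (bottom, class II genes in red) over the class II locus of chromosome 17, in kb from the low-coordinate end of H2-Ab1. Of the 19 peaks, 17 lie on the low side of H2-Ab1, the 2 others lie in H2-Ab1, and none is drawn over H2-Aa, H2-Eb1 and H2-Eb2.

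Over the whole class II locus with 50 kb on either side (349 kb), the 19 peaks had signal values from 2.37 to 9.37 with a median of 3.76. Of its 9 class II genes, 4 had a peak at an end (H2-Oa, H2-DMa, H2-Ob and H2-Ab1), near the 36.2% of all coding genes. H2-Oa and H2-Ob encode the chains of DO, which restrains DM and is found mainly in B cells. H2-Oa had a signal value of 3.76 at its low end and H2-Ob one of 6.70, and in both genes the peak covered the start next to the paired words. H2-Eb2 and H2-DMb2 had no peak at an end. Between H2-DMb1 and H2-Ob lie Psmb9, Tap1, Psmb8 and Tap2, which encode immunoproteasome subunits and the peptide transporter of the class I pathway. They had end peaks with signal values of 7.77 (shared by Psmb9 and Tap1), 6.37 for Psmb8 and 4.93 for Tap2. Of the 5 class II genes at the locus with the GCAAC pair, a peak overlapped the promoter of H2-Oa and H2-Ob and not that of H2-Aa, H2-Eb1 and H2-Eb2. Over all promoters with the pair a peak overlapped 62 of 222 (27.9%), and over all promoters 25.7%, so 2 of 5 is no result about the locus.

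The other genes of the pathway were taken from lists chosen with earlier results of these data known. They were counted by the same end rule, by which 36.2% of all coding genes had a peak. Of the factors at the class II boxes beside RFX, 4 of 5 had a peak at an end: Creb1 (8.45), Nfya (7.87), Atf1 (6.64) and Nfyb (3.74). Nfyc had none at an end and 3 in its body, and 5 of the 5 genes had a peak at a start of the promoter table. Of 18 factors known to act on Ciita or with its product, 15 had a peak at an end, the strongest being Pax5 (8.45), Bcl6 (8.33) and Usf1 (7.68). At starts it was 11 of the 15 of these factors with a start in the promoter table. Irf8, an interferon regulatory factor of myeloid and B cells, and Prdm1 and Zbtb32, repressors in late B-lineage cells, had none at an end. Irf8 and Prdm1 each had 1 peak in the body. In the body or within 50 kb, Irf8 had 4 peaks, Prdm1 4 and Zbtb32 5. The interferon gamma receptor and its signalling genes had a peak at an end in 7 of 7, among them Jak1 (7.81), Socs1 (5.42) and Jak2 (5.32). Of the enzymes and regulators of class II antigen processing, 4 of 8 had a peak: Ctsd (4.74), Ctss (4.65), Ctsb (3.96) and Ctsl (3.36), all of them lysosomal cathepsins. Lgmn, Ifi30, Marchf1 and Cd83 had none at an end. The count of 4 of 8, and that of the RFX family next, lie near the share of all coding genes. Of 7 other genes of the RFX family, Rfx7 (6.79) and Rfx1 (2.87) had a peak.

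For class I presentation, the sister pathway active in most cells, 14 of 14 genes had a peak at an end, with a median signal value of 6.87 against the 4.71 of all coding genes with one. B2m, which encodes the light chain of class I, reached 14.9, H2-K1 9.83 and Erap1 8.23. Nlrc5, the relative of Ciita that acts on class I genes, had 2 peaks at its ends, the stronger with a signal value of 4.54, and 6 peaks in its body or within 50 kb, against 0 and 1 for Ciita. These are counts in 1 list of peaks, for genes chosen with earlier results of these data known. The difference between the pathways was not tested.

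**Figure D4:**
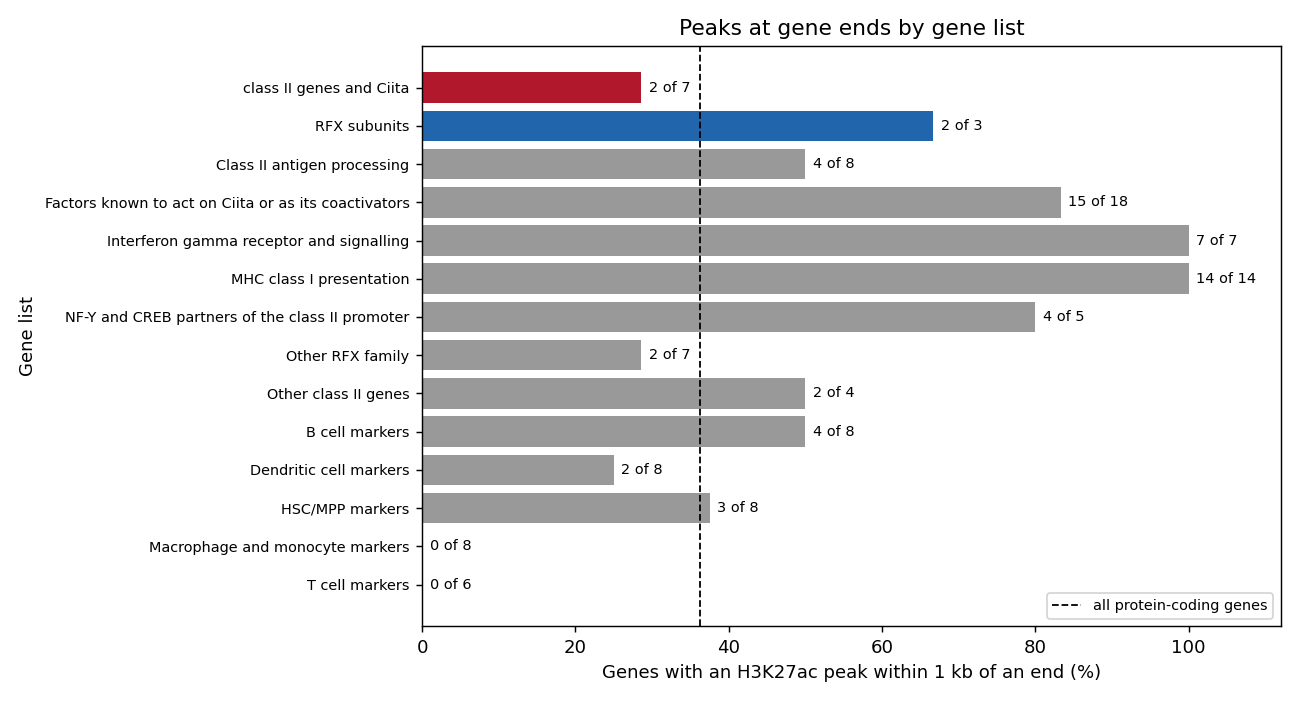
Share of genes with a peak within 1 kb of an end (%), by list, with the counts beside each bar and the share of all protein-coding genes (36.2%) as a dashed line. The class II genes and Ciita stand at 2 of 7, the RFX genes at 2 of 3 and the class I list at 14 of 14.

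Markers of the sorted cells, of other cells that carry class II and of T cells were counted in the same way, against the same 36.2% of all coding genes. Of 8 HSC/MPP markers, Meis1 (12.2), Flt3 (6.58) and Kit (5.66) had a peak at an end and Ly6a, Cd34, Hlf, Mecom and Procr had none, a share of 37.5%, close to that of all coding genes. Of 8 B-cell markers, 4 had one, among them Pax5 (8.45), Cd79a (4.40) and Cd79b (2.69), while Ms4a1, Cd22, Blk and Fcer2a had none. Of 8 dendritic cell markers, Ccr7 (6.92) and Xcr1 (6.30) had one and Itgax, Zbtb46, Clec9a, Cd209a, Siglech and Batf3 had none. None of 8 macrophage and monocyte markers and none of 6 T-cell markers had one. At starts of the promoter table, a peak lay at 3 of 7 HSC/MPP, 2 of 4 B-cell, 0 of 7 dendritic cell, 0 of 4 macrophage and monocyte and 0 of 4 T-cell markers with a start, against 38.0% of coding genes with one. The part of other cells in the peaks at H2-Ab1, H2-Oa and H2-Ob was not tested.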

How the data were processed

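The deposited list holds peaks of H3K27ac ChIPmentation over input for 4 libraries together, and no column of a single library. BWA, MACS2 and the build mm10 are named in the submitters' processing notes, without versions; how the replicates were combined is not given in the sources used here. The list has no header, so its columns were read as the standard narrowPeak layout. The authors' signal value (enrichment ratio), their −log10 p-values and −log10 q-values and their score (10 times −log10 p) belong to single peaks and were used only to describe, rank and filter peaks. Total read counts are unknown, so no interval on depth was possible. Of the deposited peaks, 4859 had a q-value above 0.05. The list keeps peaks down to a −log10 p of 2.01.

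The 10 genes and the gene lists were chosen with earlier results of these data known. Gene ends came from the RefSeq table of GRCm38.p6, the assembly behind mm10, and starts and strand from its promoter table. Peaks were intersected in Python 3.11.15 with pandas 2.3.3, and the overlap code was tested on simulated peaks. Coordinates are 1-based. Each of the 10 genes is named. In the other lists the rule names the 3 highest signal values at an end and, where 5 or fewer, the genes without a peak. Further names, among them the remaining genes with a peak in some lists, were chosen after their values were seen. Some genes of these lists are counted but not reported here by name. No test was made, because the list is 1 pooled sample. The alternatives were stricter lists, other windows and distances, summits, starts only, merged peaks, all annotated genes and other word spacings.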

Additional observations from a re-analysis of the deposited data

How the results depend on the processing

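The number of the 7 class II genes and Ciita with a peak at an end fell from 2 to 1 when −log10 q had to reach 5 and to 1 when the signal value had to reach 4. At starts alone it was 1 of the 4 genes with a start in the promoter table, among which H2-Ab1 was not counted. For the 3 RFX genes it was 0 in both of those stricter lists, in place of 2. The share of genes with an end peak was 20.9% over all annotated genes. The strongest value at H2-Ab1 was 3.98 within 2.5 kb, which takes in its body peak. Class II genes with a peak in the body fell to 1 when the signal value had to reach 4, by the part of the peak shared by H2-DMa and Brd2 that reaches into H2-DMa; the body peaks of H2-Ab1 (3.98) and H2-DMa (2.69) lie under that limit. Distinct peaks within reach of the 7 genes, 25 by the main rule, were 10 under the −log10 q limit of 5, 9 under the signal limit of 4, 8 within 20 kb and 16 after merging within 1 kb. For the RFX genes, 3 by the main rule, they were 1 and 1 in the stricter lists and 10 within 100 kb. The class II locus held 8, 7 and 11 peaks under the −log10 q limit, under the signal limit and after merging. The stricter lists have fewer peaks by construction.

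The end peaks of H2-Ab1, Rfxank and Rfxap have no value in these stricter lists. Leaving out single libraries was not possible. No paired analysis was possible because each deposited value pools the replicates. With the depth unknown, the stability of weak peaks such as those at H2-Ab1 and Rfxank was not measured.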

Other observations

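The words of the class II boxes were also set against peaks over all promoters of protein-coding genes, as a description. A peak overlapped 25.7% of the 21263 promoters. The share was 27.9% (62 of 222) for promoters with the GCAAC and ATTGG pair at the spacing of the class II boxes, and 25.4% for those with both words at any spacing. For single words it was 25.8% with GCAAC, 24.9% with ATTGG and 46.1% with TGACG, the X2-type word, which was found in 23.6% of promoters. Of these words only TGACG holds CG. Promoters of like base content were not compared, and the reason for its higher share was not tested. Of the class II promoters searched, H2-Aa held TGACG, and no peak overlapped it.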
